A study of Rattus norvegicus with 4 samples.

Results

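The 10 genes described here are regulators of kidney development: Cited1, Osr1, Lhx1, Wnt4, Pax8, Meis1, Meox1, Jag1, Notch1 and Prom1. They were chosen by name from a list of nephron progenitor and developmental regulators, and all 10 were found among the 32402 features of the count matrices. Expression was measured with Visium, a method in which a tissue section is laid on an array of barcoded spots and the messenger RNA under each spot is captured by its 3′ end and counted as unique molecular identifiers (UMIs). Each spot covers several cells, so a value belongs to a patch of tissue and not to a cell.

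The study compared kidneys of Sprague-Dawley rats in 4 groups, with 1 frozen section of 10 µm per group. The PAN rat received puromycin aminonucleoside, a podocyte toxin used to induce glomerular disease. It was fed ad libitum and was studied 5 months after the injection, 6 weeks after treatment. The PAN_LS-FMD rat received the same injection and the LS-FMD, a fasting-mimicking diet low in salts, for 6 cycles, and was studied 5 months after the injection, 6 weeks after treatment. The healthy rat had no treatment. The healthy_LS-FMD rat had no injection and was studied 72 h after refeeding that followed 1 cycle of the diet, so the diet differed in length between the injected and the uninjected rat. Because every group had 1 section, no comparison between groups has a replicate check: intervals given with levels and folds are exact 95% intervals that cover counting error only, and differences between rats, blocks, slides or libraries were not measured.

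In the embryo, cap mesenchyme cells keep themselves in a progenitor state or turn into epithelium around the branching ureteric bud. Osr1 marks the earliest renal mesoderm and Cited1 the undifferentiated cap mesenchyme. Wnt4 drives the change from mesenchyme to epithelium, Pax8 and Lhx1 act in the first epithelial structures, and signalling from the ligand Jag1 to the receptor Notch1 helps to divide the young nephron into segments. Meis1 is a homeobox gene of the renal stroma, Meox1 a mesenchymal homeobox gene, and Prom1 encodes the membrane protein CD133, which is known from scattered tubular and progenitor-associated cells.

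After spots with fewer than 500 UMIs were removed, 2724 (PAN), 2866 (healthy), 2187 (PAN_LS-FMD) and 2593 (healthy_LS-FMD) spots remained, with 24924170 to 58568499 UMIs per section and a median of 8482 to 19531 UMIs per spot. Slc34a1 of proximal tubules, Slc12a1 of the thick ascending limb and Aqp2 of principal cells were detected in every section, as the kidney label requires. Six2, the defining gene of cap mesenchyme, had 0 UMIs in all 4 sections, which allows levels of up to 0.120, 0.0512, 0.0858 and 0.118 CPM (counts per 1e+06 UMIs of the section) in PAN, healthy, PAN_LS-FMD and healthy_LS-FMD. Gdnf, Fgf8 and Fgf20, which also act in the embryonic progenitor niche, had 0 UMIs in all 4 sections too. Such a 0 limits what this assay and its annotation counted, not the gene's expression: the widely used genes Ctnnb1 (8 to 16 UMIs per section) and Ep300 (3 to 4) were also nearly uncounted. The name progenitor therefore refers to what the 10 genes do in the embryo, and no spot is called a progenitor region here. Pairs of sections shared 1648 to 2275 spot barcodes, which mark array positions. Cortical spots made up 44.9%, 41.9%, 39.6% and 24.3% of PAN, healthy, PAN_LS-FMD and healthy_LS-FMD, and medullary spots 28.9%, 21.6%, 16.3% and 40.0%, so the sections sampled the zones unequally. The healthy matrix was made with Space Ranger 2.0.1 and the other 3 with 1.2.1, per the file headers, so program version and group cannot be told apart in comparisons with healthy.

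Cited1 (ENSRNOG00000003189), a transcriptional co-activator, was the gene of the set with the largest deficit in the injected kidney. It had 19 UMIs in PAN, a level of 0.762 CPM (0.459 to 1.19), and 447 UMIs in healthy, 7.63 CPM (6.94 to 8.37). In PAN_LS-FMD it had 58 UMIs, 1.66 CPM (1.26 to 2.14), and in healthy_LS-FMD 113 UMIs, 4.46 CPM (3.68 to 5.36). The order was healthy, healthy_LS-FMD, PAN_LS-FMD and PAN, and the intervals of the 4 levels did not overlap. No spot of PAN held more than 1 Cited1 UMI, whereas single spots of healthy held up to 4.

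Osr1 (ENSRNOG00000004210), a zinc finger gene, had few UMIs in every section: 43 in PAN (1.73 CPM, 1.25 to 2.32), 27 in healthy (0.461 CPM, 0.304 to 0.671), 15 in PAN_LS-FMD (0.429 CPM, 0.240 to 0.708) and 59 in healthy_LS-FMD (2.33 CPM, 1.77 to 3.0). Its levels formed a high pair, healthy_LS-FMD and PAN, and a low pair, healthy and PAN_LS-FMD, and within each pair the levels did not differ beyond counting error. Lhx1 (ENSRNOG00000002812), a LIM homeobox gene, had 13 UMIs in PAN (0.522 CPM, 0.278 to 0.892), 48 in healthy (0.820 CPM, 0.604 to 1.09), 46 in PAN_LS-FMD (1.32 CPM, 0.963 to 1.75) and 30 in healthy_LS-FMD (1.18 CPM, 0.799 to 1.69). No neighbours in the order of its 4 levels were apart beyond counting error, and PAN was at the low end of that order.

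Wnt4 (ENSRNOG00000013166), a secreted ligand, had 101 UMIs in PAN (4.05 CPM, 3.30 to 4.92), 33 in healthy (0.563 CPM, 0.388 to 0.791), 33 in PAN_LS-FMD (0.944 CPM, 0.650 to 1.33) and 47 in healthy_LS-FMD (1.86 CPM, 1.36 to 2.47). PAN was highest and healthy lowest, with each neighbouring pair apart by the interval of their ratio. Pax8 (ENSRNOG00000026203), a paired-box gene that stays on in adult tubules, was abundant throughout: 3333 UMIs in PAN (134 CPM, 129 to 138), 6055 in healthy (103.4 CPM, 101 to 106), 4943 in PAN_LS-FMD (141 CPM, 137 to 145) and 4356 in healthy_LS-FMD (172 CPM, 167 to 177). Its highest and lowest sections were the 2 uninjected kidneys, and the 2 injected kidneys lay between them.

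The mesenchymal homeobox genes were both highest in PAN. Meis1 (ENSRNOG00000004606) had 421 UMIs in PAN (16.9 CPM, 15.3 to 18.6), 315 in healthy (5.38 CPM, 4.80 to 6.01), 237 in PAN_LS-FMD (6.78 CPM, 5.94 to 7.70) and 266 in healthy_LS-FMD (10.5 CPM, 9.28 to 11.8). Meox1 (ENSRNOG00000020803) had 105 UMIs in PAN (4.21 CPM, 3.45 to 5.10) but 21 in healthy (0.359 CPM, 0.222 to 0.548), 21 in PAN_LS-FMD (0.601 CPM, 0.372 to 0.918) and 17 in healthy_LS-FMD (0.671 CPM, 0.391 to 1.07). The 3 lower Meox1 levels did not differ from their neighbours beyond counting error, so PAN alone stood apart for this gene.

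Jag1 (ENSRNOG00000007443), a Notch ligand, had 991 UMIs in PAN (39.8 CPM, 37.3 to 42.3), 1390 in healthy (23.7 CPM, 22.5 to 25.0), 979 in PAN_LS-FMD (28.0 CPM, 26.3 to 29.8) and 1231 in healthy_LS-FMD (48.6 CPM, 45.9 to 51.4). Notch1 (ENSRNOG00000019322), its receptor, had 1155 UMIs in PAN (46.3 CPM, 43.7 to 49.1), 1129 in healthy (19.3 CPM, 18.2 to 20.4), 864 in PAN_LS-FMD (24.7 CPM, 23.1 to 26.4) and 842 in healthy_LS-FMD (33.2 CPM, 31.0 to 35.6). Ligand and receptor were both lowest in healthy, but the highest section was healthy_LS-FMD for Jag1 and PAN for Notch1. Prom1 (ENSRNOG00000003098) had 4159 UMIs in PAN (167 CPM, 162 to 172), 11398 in healthy (195 CPM, 191 to 198), 8771 in PAN_LS-FMD (251 CPM, 246 to 256) and 4157 in healthy_LS-FMD (164 CPM, 159 to 169). It was highest in PAN_LS-FMD, and PAN and healthy_LS-FMD did not differ beyond counting error. Levels are not compared between genes, because UMIs count 3′ ends and the yield per transcript differs between genes.

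**Figure D1:**
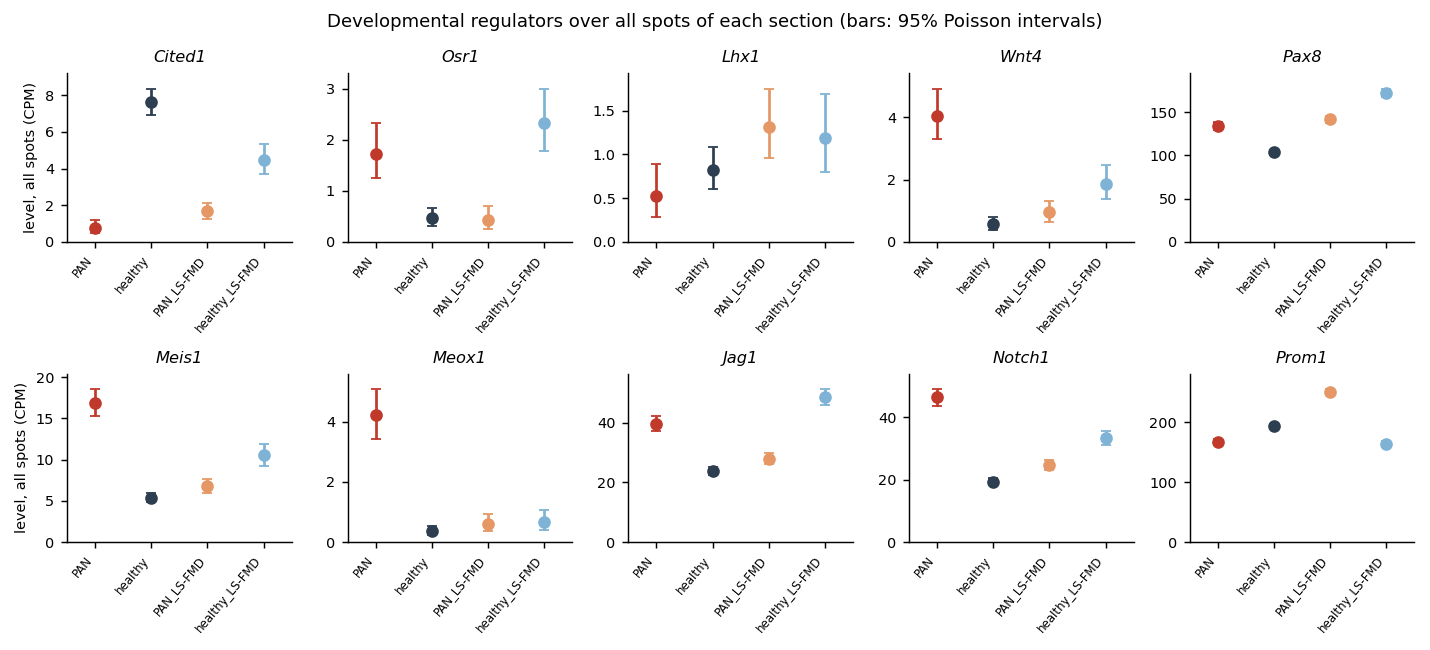
Level of each of the 10 genes over all spots of each section, in CPM on a linear axis that starts at 0 and differs between panels; points are the 1 section of each group and bars the exact 95% Poisson interval. Cited1 is highest in healthy, Wnt4, Meis1, Meox1 and Notch1 are highest in PAN, and Prom1 is highest in PAN_LS-FMD.

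The 250 bases upstream of the annotated start are shown for the member most reduced in PAN against healthy and for 3 genes that were higher in PAN than in healthy, as context for where these genes lie. The sequences are those of RefSeq on the GRCr8 build, which may not be the build of the count matrices. They are Cited1 (chrX:71395024-71395273, minus strand), Osr1 (chr6:38097401-38097650, plus strand), Wnt4 (chr5:154797200-154797449, plus strand) and Meis1 (chr14:97495084-97495333, minus strand), each written 5′ to 3′ on the strand of the gene and ending at the base before the start. Capitals mark the motif letters that were found.
Cited1: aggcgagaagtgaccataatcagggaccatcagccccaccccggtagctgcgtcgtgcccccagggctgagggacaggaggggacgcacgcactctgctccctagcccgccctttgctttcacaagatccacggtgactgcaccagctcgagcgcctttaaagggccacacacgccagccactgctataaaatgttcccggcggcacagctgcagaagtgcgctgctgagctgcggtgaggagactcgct
Osr1: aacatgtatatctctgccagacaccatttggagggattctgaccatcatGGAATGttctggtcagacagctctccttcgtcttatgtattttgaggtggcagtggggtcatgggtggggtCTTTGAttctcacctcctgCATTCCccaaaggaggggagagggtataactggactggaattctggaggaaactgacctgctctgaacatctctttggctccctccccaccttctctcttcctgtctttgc
Wnt4: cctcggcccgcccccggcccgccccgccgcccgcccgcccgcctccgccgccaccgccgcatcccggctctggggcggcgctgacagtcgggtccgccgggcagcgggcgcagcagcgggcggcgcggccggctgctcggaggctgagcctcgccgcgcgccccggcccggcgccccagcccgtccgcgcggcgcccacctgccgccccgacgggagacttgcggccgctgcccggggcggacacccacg
Meis1: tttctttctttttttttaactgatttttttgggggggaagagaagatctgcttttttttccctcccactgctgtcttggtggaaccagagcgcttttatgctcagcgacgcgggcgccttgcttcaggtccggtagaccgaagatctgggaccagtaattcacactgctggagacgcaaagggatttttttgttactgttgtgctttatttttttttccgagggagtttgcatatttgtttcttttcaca

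Among the members, 9 of 10 had an entry, and Prom1 had 2 entries. The 3 motifs searched on both strands were TGGGAA (the core bound by RBPJ, the DNA-binding partner of Notch), GGAATG (TEAD) and CTTTGA (TCF/LEF, the DNA-binding partners of Wnt signalling), and none of them overlaps another in the windows shown. Osr1 was the only member with matches: GGAATG began 201 bases upstream on the plus strand, its reverse complement 111 bases upstream, and CTTTGA 130 bases upstream. Over the 33469 windows of the same length in the table, TGGGAA occurred in 22.1%, GGAATG in 12.1% and CTTTGA in 13.9%. The Wnt4 window was 86.4% G and C with 47 CpG pairs, the Cited1 window 62.4% with 16, the Meis1 window 43.6% with 9, and the Osr1 window 50% with 1. A match here describes the letters only.

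PAN was set against healthy to ask how the kidney differed months after podocyte injury. Of the 10 genes, 6 were higher in PAN and 1 was lower, where a gene is called when its level differs at least 1.5-fold with a counting interval that excludes 1 and it has at least 20 UMIs over both sections. Meox1 was 11.7-fold higher (7.30 to 19.8), Wnt4 7.19-fold (4.81 to 11), Osr1 3.74-fold (2.26 to 6.30), Meis1 3.14-fold (2.71 to 3.65), Notch1 2.40-fold (2.21 to 2.61) and Jag1 1.68-fold (1.54 to 1.82). Cited1 was 10.0-fold lower (6.34 to 16.8). Pax8 (1.29-fold, 1.24 to 1.35), Prom1 (0.857-fold, 0.827 to 0.889) and Lhx1 (0.636-fold, 0.316 to 1.19) were not called.

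Such calls were common in this comparison: over all 13208 genes tested, 44.3% were higher in PAN and 9.85% lower, so a count of 6 of 10 was not far from the background. The median log2 fold was 1.01 over the 10 genes and 0.51 over all genes. The scaling matters here. Scaling the section sums by the median of ratios over genes brings the median gene close to no change, and the share of calls that were higher moves from 81.8% to 51.0% (22.6% of all genes higher and 21.6% lower). Under that scaling 5 of the 10 genes were higher and 3 lower: Meox1, Wnt4, Osr1, Meis1 and Notch1 stayed higher and Cited1 stayed lower, Jag1 was no longer called, Lhx1 and Prom1 were called lower, and Pax8 changed its side of 1 without a call.

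Cell type markers also differed between PAN and healthy. The summed level of the matrix and fibroblast list (18 of 18 genes detected in each section) was 4600 CPM in PAN and 906 CPM in healthy, that of the macrophage list (12 of 12) 7390 and 1317 CPM, and that of the smooth muscle and pericyte list (11 of 12 genes in PAN, 12 of 12 in healthy) 1020 and 302 CPM. Other lists, such as proximal S3 and distal convoluted and connecting tubule, were lower in PAN, with values given below. A different number of cells of a type and a different amount of RNA per cell cannot be told apart in spots. The part of these cells in the differences of the 10 genes was not tested. Folds were also taken without the PAN regions led by Car3, Lum and Ankrd1 and by Igh-6, Pla2g2a and Serpine2. The first of these scored highest in the matrix and fibroblast list and is called matrix-led here. Without both regions Meox1 was 8.16-fold higher (4.90 to 14.1), Wnt4 6.21-fold (4.07 to 9.68) and Meis1 3.0-fold (2.56 to 3.51), and Cited1 was 10.6-fold lower (6.36 to 19.1).

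The direction of these calls held zone by zone for most members. In cortical spots 6 genes were higher and 2 lower (39.8% and 10.3% of all genes), with Meox1 13.4-fold (6.36 to 32.6), Wnt4 4.92-fold (2.59 to 9.88), Osr1 2.87-fold (1.21 to 7.15) and Meis1 2.54-fold (2.01 to 3.21) higher. Cited1 was 10.0-fold lower in cortex (5.17 to 22.3), 15-fold in the outer stripe (4.07 to 126) and 9.46-fold in medulla (4.68 to 22.3), so its deficit was present in each zone. In the outer stripe 4 of 8 tested members were higher and 1 lower (42.6% and 8.28% of all genes), and in medulla 6 of 9 were higher and 1 lower (42.9% and 10.8%). Prom1 was the exception. It was 1.90-fold lower in the cortex of PAN (1.78 to 2.04) but 1.49-fold higher in the outer stripe (1.41 to 1.57), just under the fold used for a call, and under median-of-ratios scaling the cortical count was 3 higher and 3 lower.

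PAN_LS-FMD was set against PAN to ask how the injected kidney with the diet differed from the one without. Here 3 genes were higher (9.67% of all 12850 genes tested) and 5 lower (35.5%). Lhx1 was 2.52-fold higher (1.34 to 5.09), Cited1 2.18-fold (1.28 to 3.87) and Prom1 1.5-fold (1.45 to 1.56). Meox1 was 7.01-fold lower (4.36 to 11.8), Wnt4 4.29-fold (2.87 to 6.57), Osr1 4.02-fold (2.19 to 7.79), Meis1 2.49-fold (2.12 to 2.93) and Notch1 1.88-fold (1.72 to 2.05). Jag1 (0.704-fold, 0.644 to 0.770) and Pax8 (1.06-fold, 1.01 to 1.1) were not called.

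The median log2 fold was -0.71 over the 10 genes and -0.37 over all genes, and median-of-ratios scaling moved the share of higher calls from 21.4% to 46.3%. Under it the same 3 genes were higher and 4 were lower, since Notch1 (0.696-fold) was no longer called. The Prom1 call sat on the threshold and was lost when only spots of at least 3000 UMIs were kept (1.498-fold) or when PAN was taken without its matrix-led and Pla2g2a regions (1.39-fold). The matrix and fibroblast list stood at 842 CPM in PAN_LS-FMD against 4600 CPM in PAN, and the proximal S3 list (8 of 8 genes detected in both) at 24225 against 3473 CPM. Their part in the differences was not tested.

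Cortical spots gave 3 higher (10.3% of all genes) and 3 lower (26.7%). Cited1 was 3.72-fold higher in cortex (1.74 to 8.85), Lhx1 2.44-fold (1.12 to 5.71) and Prom1 1.72-fold (1.59 to 1.86), while Meox1 was 6.89-fold lower (3.27 to 16.7), Wnt4 1.87-fold (1.04 to 3.44) and Meis1 1.61-fold (1.26 to 2.07). Osr1 and Notch1, called over all spots, were not called in cortex (2.11-fold lower, 0.810 to 6.12, and 1.16-fold lower, 1.02 to 1.32), and Notch1 and Pax8 changed their side of 1 there under median-of-ratios scaling. In the outer stripe Prom1 was at 0.983-fold (0.933 to 1.04) of PAN and in medulla 1.78-fold higher (1.63 to 1.95). Of 7 members tested in the outer stripe 0 were higher and 4 lower (7.62% and 37.1% of all genes), and of 9 in medulla 1 was higher and 6 lower (10.6% and 35.8%). Meox1, Wnt4, Meis1 and Notch1 were among the lower ones in both zones.

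PAN_LS-FMD was also set against healthy, which asks what still separated the treated injured kidney from an untouched one; it shares its sections with the comparisons above, and healthy also serves the next one. Only 3 genes were called: 2 higher (6.80% of 12977 genes) and 1 lower (4.53%). Cited1 was 4.60-fold lower (3.49 to 6.16). Wnt4 was 1.68-fold higher (1.00 to 2.80) and Lhx1 1.61-fold higher (1.05 to 2.46), both on few UMIs and both lost under median-of-ratios scaling, which moved the share of higher calls over all genes from 60% to 40.5%. Osr1 (0.931-fold, 0.460 to 1.81), Meox1 (1.68-fold, 0.870 to 3.22) and Meis1 (1.26-fold, 1.06 to 1.5) were not called, and the medians were 0.36 over the 10 genes and 0.12 over all genes.

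Cited1 was the member with the largest difference from healthy in this comparison in every zone: it was 2.70-fold lower in cortex (1.85 to 4.04), 9.73-fold in the outer stripe (4.78 to 23.1) and 4.77-fold in medulla (2.70 to 9.17). The exception is Lhx1 in medulla, whose ratio of 9.55 (0.945 to 470) rests on too few UMIs to be tested. Cited1 was also the only member called in these inner zones: of 7 tested in the outer stripe 0 were higher and 1 lower (5.07% and 4.40% of all genes), and of 6 in medulla 0 were higher and 1 lower (6.49% and 3.84%). The summed distal convoluted and connecting tubule list, the list that ran highest in Cited1 spots, was at 594 CPM in PAN_LS-FMD against 379 CPM in healthy (5 of 7 genes detected in each), so this list was higher where Cited1 was lower. In PAN the same list stood at 177 CPM, lower than in healthy together with Cited1. Most of each sum came from Slc12a3 alone, at 455 CPM in PAN_LS-FMD, 257 CPM in healthy and 126 CPM in PAN. The part of the list in the differences was not tested. In cortex 3 of 8 tested members were higher (10.2% of all genes) and Cited1 alone was lower (3.46%): Wnt4 2.64-fold (1.25 to 5.69), Notch1 1.61-fold (1.41 to 1.83) and Meis1 1.58-fold (1.21 to 2.05). Notch1 and Meis1 lost that call under median-of-ratios scaling.

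healthy_LS-FMD was set against healthy to ask what 1 cycle of the diet with refeeding went with in an uninjected kidney. The count was 6 higher (27.1% of 12967 genes) and 1 lower (5.27%). Osr1 was 5.05-fold higher (3.15 to 8.29), Wnt4 3.29-fold (2.07 to 5.31), Jag1 2.05-fold (1.89 to 2.21), Meis1 1.95-fold (1.65 to 2.31), Notch1 1.72-fold (1.58 to 1.89) and Pax8 1.66-fold (1.60 to 1.73). Cited1 was 1.71-fold lower (1.39 to 2.12). Lhx1 (1.45-fold, 0.884 to 2.33), Meox1 (1.87-fold, 0.927 to 3.72) and Prom1 (0.843-fold, 0.814 to 0.874) were not called. The medians were 0.85 over the 10 genes and 0.33 over all genes.

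Median-of-ratios scaling moved the share of higher calls from 83.7% to 44.8% and left Osr1, Wnt4, Jag1 and Meis1 higher and Cited1 lower, with Prom1 called lower as well. The healthy_LS-FMD section held more medulla, and the inner medulla and thin limb list (9 of 10 genes detected, 10 of 10 in healthy) stood at 3567 CPM against 1774 CPM, so values within zones are given beside those over all spots. Within zones, 3 of 8 tested members were higher in cortex (23.5% of all genes) and 0 lower (6.47%), namely Wnt4 4.47-fold (1.93 to 10.3), Lhx1 2.20-fold (1.14 to 4.08) and Meis1 1.86-fold (1.32 to 2.59). The region led by Klk1c9 and Calb1, where Lhx1 was highest in healthy, counted as cortex in healthy but as medulla in healthy_LS-FMD. The cortical Lhx1 fold therefore compares partly unlike tissue. In medulla 6 of 8 were higher (33.9%) and 2 lower (8.57%), with Osr1 6.94-fold (3.35 to 16.2) and Pax8 2.04-fold (1.91 to 2.19) among the higher. The outer stripe had 2 of 6 tested members higher (16.0% of all genes), Jag1 and Meis1, and 1 lower (4.27%). Cited1 was 0.890-fold in cortex (0.591 to 1.30), 2.46-fold lower in the outer stripe (1.57 to 3.99) and 2.05-fold lower in medulla (1.49 to 2.87).

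**Figure D2:**
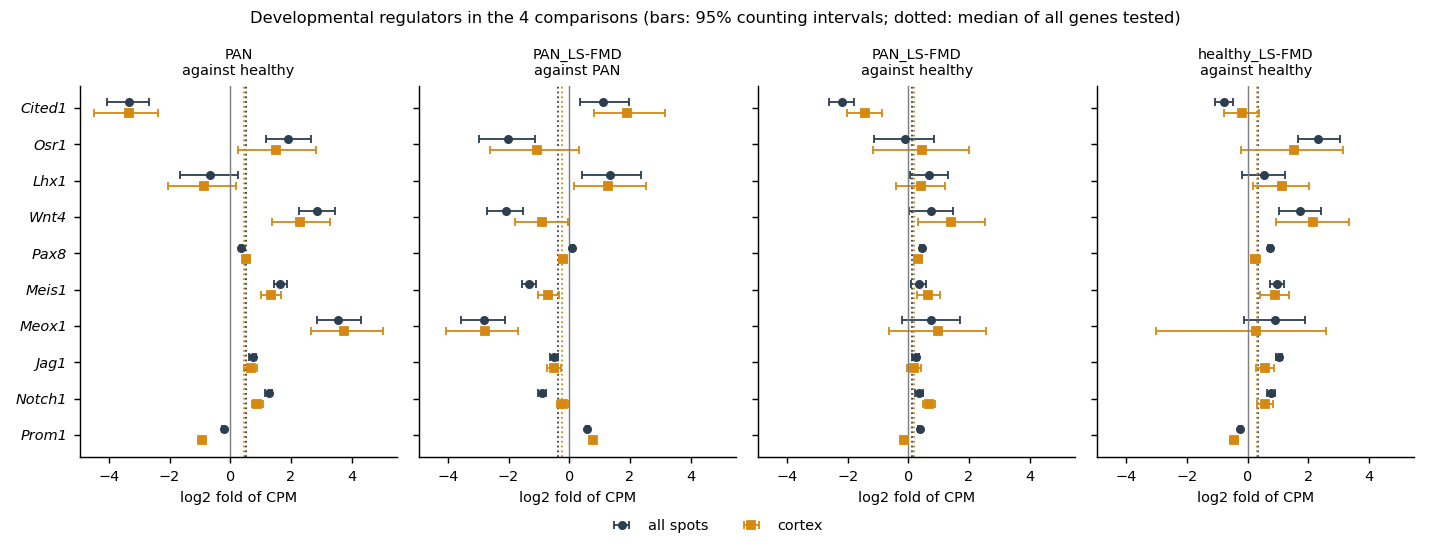
log2 fold of each gene in the 4 comparisons, for all spots (circles) and cortical spots (squares), with 95% counting intervals and a dotted line at the median of all genes tested for each set of spots. Cited1 lies left of 0 in each comparison with healthy and right of 0 for PAN_LS-FMD against PAN, and Meox1 lies farthest right in PAN against healthy; Pax8 in that comparison moves to the other side of 0 under median-of-ratios scaling, as do, in cortex, Pax8 and Notch1 in PAN_LS-FMD against PAN, Jag1 in PAN_LS-FMD against healthy, and Pax8 and Meox1 in healthy_LS-FMD against healthy.

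Because the sections differed in depth, the share of spots with a UMI was also taken after thinning each spot to 5000 UMIs, which left out 401 spots of PAN, 5 of healthy, 25 of PAN_LS-FMD and 387 of healthy_LS-FMD. Cited1 was then found in 0.430%, 3.98%, 1.2% and 2.40% of spots of PAN, healthy, PAN_LS-FMD and healthy_LS-FMD, against 0.698%, 13.6%, 2.51% and 4.24% without thinning. Meox1 was found in 2.41%, 0.140%, 0.0925% and 0.408% after thinning. Healthy stayed first for Cited1 and PAN first for Meox1 at equal depth. Thinned shares were higher in PAN than in healthy for 7 of the 10 genes, and for 5 without thinning. These counts include shares whose intervals overlap, such as Osr1 after thinning (0.818%, 0.493 to 1.27, in PAN and 0.350%, 0.168 to 0.642, in healthy). The same share over all genes was not computed, so the counts are not read as a trait of the 10 genes. The abundant members reached Prom1 shares of 47.1% to 62.4% and Pax8 shares of 40.6% to 55.3%, and the other 8 genes stayed at or below 21.7% in every section.

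Zones were taken from regions of spots with similar expression, clustered without the 10 genes and placed in cortex, outer stripe, medulla or blood-rich tissue by marker lists. Of the 40 pairs of a gene and a section, 25 had a higher level in medulla than in cortex. That count includes ratios not apart from 1, such as Prom1 in healthy (1.01-fold, 0.955 to 1.07). The same share over all genes was not computed, so the count is not read as a trait of the 10 genes. Prom1 was higher in the outer stripe than in cortex, with 88.7 CPM in cortex and 355 CPM in the outer stripe of PAN (4.0-fold, 3.71 to 4.32), 169 and 239 CPM in healthy (1.41-fold, 1.35 to 1.47), 152 and 349 CPM in PAN_LS-FMD (2.29-fold, 2.17 to 2.42), and 125 and 222 CPM in healthy_LS-FMD (1.78-fold, 1.63 to 1.96). All 4 sections went the same way, and the ratio was largest in PAN.

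Pax8 was lower in cortex than in the outer stripe and medulla of each section. Its level in the outer stripe was 1.70-fold that in cortex in PAN, 1.74-fold in healthy, 1.93-fold in PAN_LS-FMD and 1.83-fold in healthy_LS-FMD, and its level in medulla was 1.40, 1.59, 1.63 and 2.72-fold that in cortex. Jag1 was higher in medulla than in cortex by 1.81-fold in PAN, 1.59-fold in healthy, 1.43-fold in PAN_LS-FMD and 2.38-fold in healthy_LS-FMD. All of these ratios had intervals above 1. Notch1 was less uniform: the medulla was at 1.26-fold of cortex in PAN (1.09 to 1.45), 0.969-fold in healthy (0.833 to 1.13), 0.560-fold in PAN_LS-FMD (0.448 to 0.695) and 1.44-fold in healthy_LS-FMD (1.19 to 1.74).

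Of the low-abundance members, Osr1, Wnt4 and Lhx1 differed between medulla and cortex in some sections, and Meox1 in none beyond counting error. Osr1 was higher in medulla than in cortex in PAN (3.13 against 1.32 CPM, 2.38-fold, 1.15 to 5.03) and in healthy_LS-FMD (5.27 against 1.32 CPM, 3.98-fold, 1.69 to 11.4), the 2 sections with most of its UMIs. The Osr1 ratio was 1.65 in healthy and 0.645 in PAN_LS-FMD, neither apart from 1. Wnt4 was 2.30-fold higher in medulla than in cortex in PAN (1.44 to 3.67), where that zone includes 207 spots of a region led by Igh-6, Pla2g2a and Serpine2. Its ratio was 0.919 in healthy, 0.594 in PAN_LS-FMD and 1.02 in healthy_LS-FMD, none apart from 1. Lhx1 ran the other way: it was lower in medulla than in cortex by 19.0-fold in healthy (3.20 to 773, on 1 UMI in medulla) and 3.77-fold in healthy_LS-FMD (1.52 to 10.2), and its medullary level was also the lower one in PAN and PAN_LS-FMD without being apart.

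**Figure D3:**
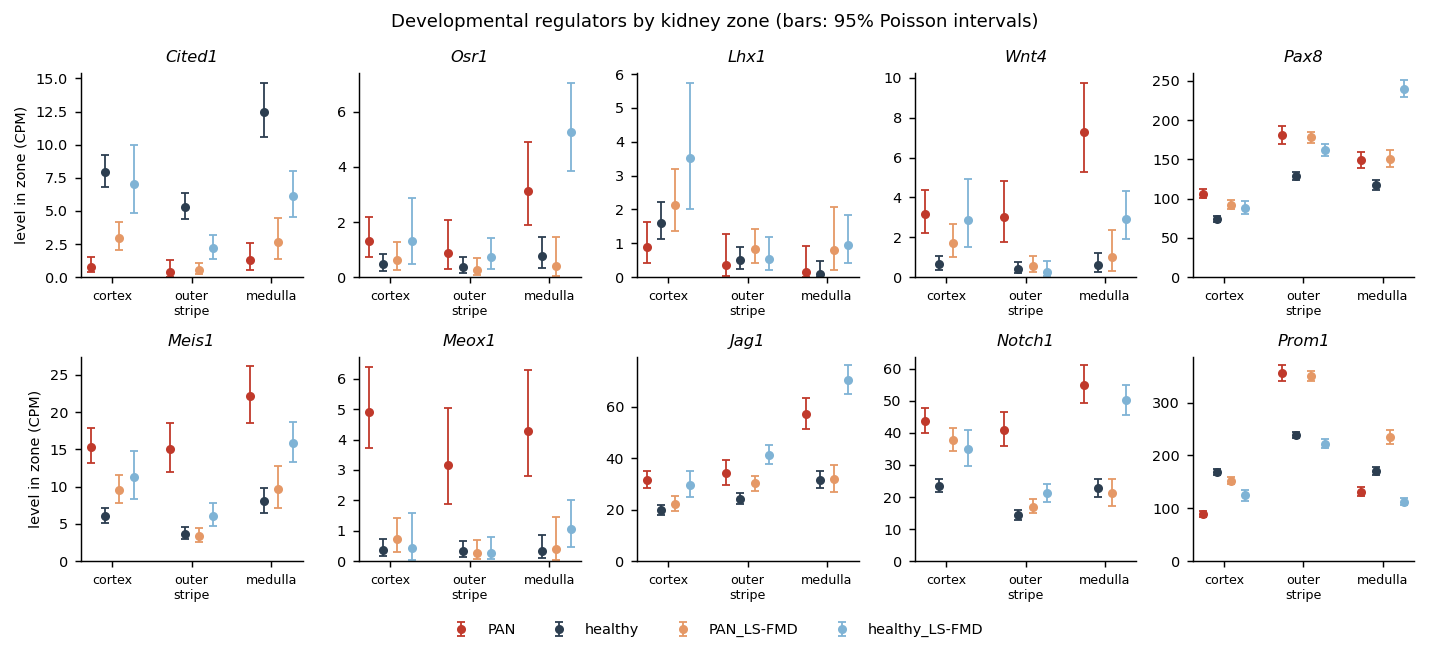
Level of each gene in cortex, outer stripe and medulla of each section, in CPM on linear axes that differ between panels; points are 1 zone of 1 section, bars are exact 95% Poisson intervals, and blood-rich spots are not drawn. Prom1 is highest in the outer stripe of all 4 sections, and Lhx1 is lower in medulla than in cortex in all 4.

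Regions within a section placed the members more narrowly. The sections divided into 57 regions, named here by their leading genes. Notch1 was highest in the podocyte-gene region (Nphs1 and Clic3 among its leading genes) in each section: 89.1 CPM in PAN (1.94-fold the rest of the section, 1.28 to 2.84), 58.6 in healthy (3.25-fold, 2.63 to 3.97), 104 in PAN_LS-FMD (4.77-fold, 3.92 to 5.76) and 69.0 in healthy_LS-FMD (2.11-fold, 1.41 to 3.06). These regions held 33, 115, 99 and 61 spots. The endothelium list also had its highest score of each section there (2.68, 2.76, 2.82 and 2.33), so podocytes and endothelium cannot be told apart as the site of Notch1. Between sections, Notch1 in this region was 1.77-fold higher in PAN_LS-FMD than in healthy (1.36 to 2.32), and 1.52-fold in PAN over healthy (0.958 to 2.34), an interval that includes 1.

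In the same podocyte-gene region, Meis1 was 3.13-fold higher in PAN than in healthy (1.23 to 7.43), Jag1 2.39-fold (1.33 to 4.15) and Prom1 0.385-fold (0.207 to 0.661). Prom1 there had 14 UMIs in PAN and 215 in healthy. Against PAN, the region of PAN_LS-FMD had 2.58-fold more Prom1 (1.49 to 4.84) and 0.271-fold as much Meis1 (0.0990 to 0.755). The PAN region had only 33 spots, so each of these values rests on few UMIs.

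Cited1, outside PAN, and Lhx1, in all sections, were highest in regions led by distal tubule genes; no region of PAN held more than a few Cited1 UMIs. Cited1 in the region led by Gp2 and Slc12a3, the sodium-chloride cotransporter of the distal convoluted tubule, was at 28.5 CPM in healthy (36 of its 447 UMIs, 3.97-fold the rest, 2.74 to 5.59) and 17.3 CPM in healthy_LS-FMD (11 UMIs, 4.18-fold, 2.02 to 7.81). The corresponding region of PAN_LS-FMD had 6.55 CPM (6 UMIs, 4.29-fold, 1.51 to 9.98). A second site in healthy was a region led by Spp1 and Slc4a11, highest in the inner medulla and thin limb list, with 27.5 CPM (53 UMIs, 3.96-fold, 2.91 to 5.28). In healthy the gene was found in every region, between 3.25 and 28.5 CPM.

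Lhx1 in the region led by Klk1c9, Slc12a3 and Calb1 of PAN was at 3.15 CPM (4 of 13 UMIs, 8.29-fold the rest, 1.87 to 29.7). In the Slc12a3 and Gp2 region of PAN_LS-FMD it was at 9.83 CPM (9 of 46 UMIs, 9.04-fold, 3.84 to 19.1), and in that of healthy_LS-FMD at 11 CPM (7 of 30 UMIs, 11.8-fold, 4.28 to 28.4). In healthy its highest region was led by Klk1c9 and Calb1, with 4.37 CPM (13 of 48 UMIs, 6.95-fold, 3.37 to 13.5). A region with Calb1 or Slc12a3, genes of the distal nephron, among its leading genes was thus the highest site of Lhx1 in each of the 4 sections.

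Wnt4 was highest in the following regions, on few UMIs. In PAN its highest level, 13.7 CPM, was in the region led by Igh-6, Pla2g2a and Serpine2 (18 of 101 UMIs, 3.90-fold the rest, 2.21 to 6.56), followed by the podocyte-gene region (9.90 CPM on 3 UMIs) and the region led by Slc4a11 and Eln (8.97 CPM, 2.43-fold, 1.30 to 4.23). In the other sections the podocyte-gene region was highest: 3.35 CPM in healthy (6 UMIs, 7.04-fold, 2.38 to 17.4), 4.03 in PAN_LS-FMD (5 UMIs, 4.85-fold, 1.46 to 12.7) and 9.51 in healthy_LS-FMD (4 UMIs, 5.51-fold, 1.44 to 15.2).

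Meox1 in PAN was highest in the matrix-led region (Car3, Lum and Ankrd1), at 12.3 CPM (3.84-fold the rest, 2.48 to 5.86). This region held 34 of the 105 UMIs, 32.4% of the gene and 11.1% of all UMIs of the section. Osr1 was highest in regions that ran highest in the inner medulla and thin limb list, in PAN (Slc4a11 and Eln, 4.78 CPM on 8 UMIs) and healthy_LS-FMD (Slc6a12, 8.29 CPM on 13 UMIs). In healthy_LS-FMD, Meis1 and Jag1 were highest in the region led by Spp1 and Thbs2, at 21.0 CPM (2.32-fold, 1.73 to 3.08) and 98.1 CPM (2.35-fold, 2.06 to 2.68).

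Pax8 and Prom1, the abundant members, were also read by region. Pax8 peaked at 405 CPM in a region of healthy_LS-FMD with Aqp3 and Fxyd4, genes of the collecting duct, among its leading genes (2.49-fold, 2.24 to 2.76) and was lowest in PAN in the podocyte-gene region (59.4 CPM). Prom1 was highest in regions of the proximal S3 segment: 409 CPM in the Slc7a13 and Kap region of PAN (2.90-fold, 2.70 to 3.12), 283 in the Cyp2c24 and Cyp24a1 region of healthy, 415 in the Aadat and Slc7a13 region of PAN_LS-FMD and 249 in the Dmrtc1c1 and Cyp24a1 region of healthy_LS-FMD. Over all spots the proximal S3 list was at 3473 CPM in PAN and 22897 CPM in healthy, and Prom1 at 167 and 195 CPM. The list is a sum, which its most abundant genes can set, and its part in the Prom1 levels was not tested.

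**Figure D4:**
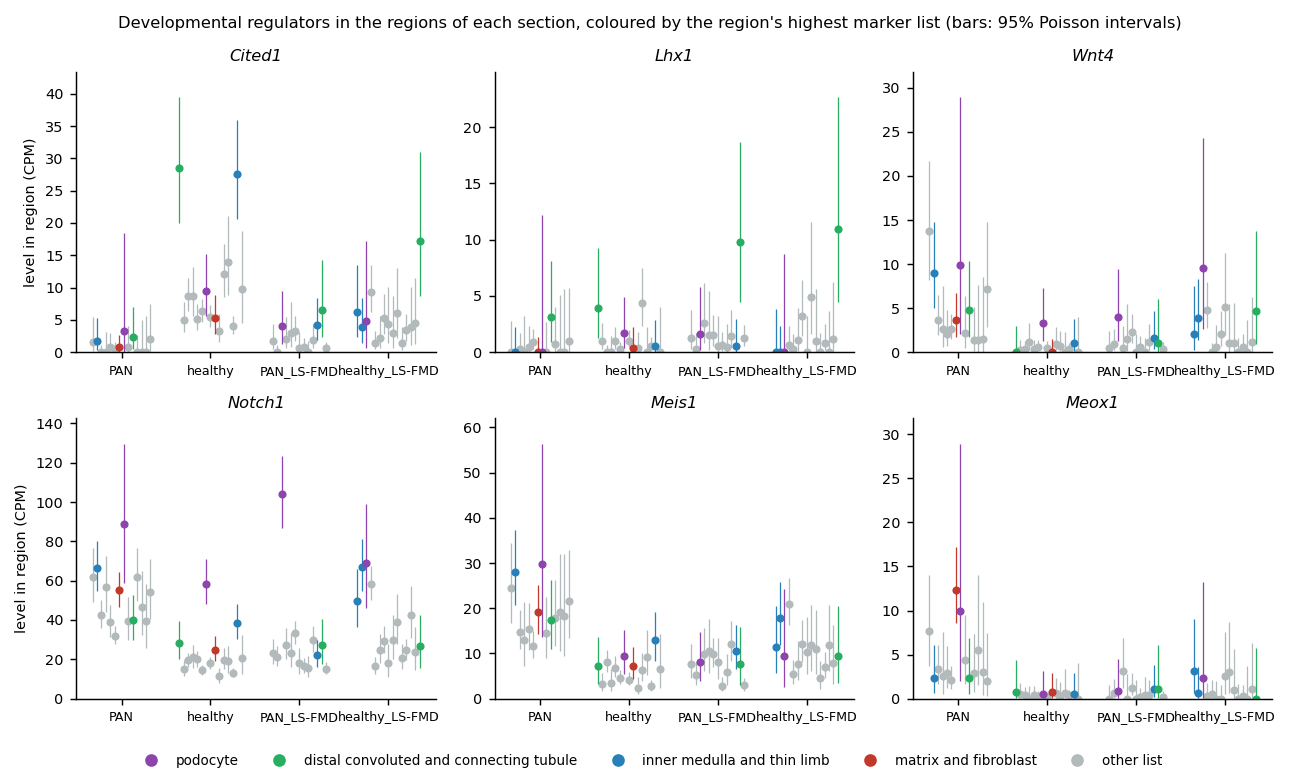
Level of 6 of the genes in each region of each section, in CPM on linear axes that differ between panels; each point is a region, bars are exact 95% Poisson intervals, and colours give the marker list that scored highest in the region. Notch1 is highest in the podocyte region of all 4 sections, Cited1 in the distal and inner medullary regions of healthy, and Meox1 in the matrix region of PAN. The endothelium list, which is not coloured, also scores highest of each section in the podocyte region.

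The spots that hold a gene were then read for 18 lists of segment, stromal and immune markers, by the ratio of the summed list level in holding spots to that in the other spots, for genes with at least 50 holding spots in a section. Of 468 such ratios 20 reached 1.5, and 19 did when the other spots were weighted to the same depth. Cited1 spots were highest in the distal convoluted and connecting tubule list, by 1.79-fold in healthy, 2.23-fold in PAN_LS-FMD and 2.04-fold in healthy_LS-FMD, and lowest in the B and plasma cell list (0.555, 0.593 and 0.641-fold). PAN had 19 Cited1 spots, too few for a ratio. Lhx1 had 13 to 46 holding spots per section and was not read either.

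Notch1 spots carried the podocyte list at 1.70-fold in healthy, 2.05-fold in PAN_LS-FMD, 1.2-fold in PAN and 1.09-fold in healthy_LS-FMD. In healthy the B and plasma cell list was higher still, at 1.87-fold, and in healthy_LS-FMD the T and NK cell list led, at 1.33-fold. The 96 Wnt4 spots of PAN were highest in the podocyte list (2.06-fold), then the principal cell list (1.72-fold) and the B and plasma cell list (1.71-fold). The Meox1 spots of PAN were also highest in the podocyte list (1.62-fold), then the parietal epithelium list (1.24-fold) and the matrix and fibroblast list (1.16-fold). The podocyte-gene region of PAN held only 3 Wnt4 UMIs and 3 Meox1 UMIs, and both genes had their highest level in other regions. How few spots carry these 2 podocyte ratios was not examined, so most Wnt4 and Meox1 spots of PAN are not called glomerular here. Osr1 spots of healthy_LS-FMD were highest in the parietal epithelium list (1.74-fold) and the endothelium list (1.61-fold). Of these 59 spots 45 lay in medulla and 6 in cortex, and their podocyte list was at 0.877-fold. In this section the parietal epithelium list itself scored highest in 2 medullary regions (1.98 and 1.81), against 0.501 in the podocyte-gene region.

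Prom1 spots were highest in the proximal S3 list in each section (2.42, 1.73, 2.07 and 2.12-fold in PAN, healthy, PAN_LS-FMD and healthy_LS-FMD), as were Pax8 spots (1.49, 1.54, 1.87 and 1.46-fold). With the other spots weighted to the same depth, these ratios were 2.48, 1.55, 1.72 and 1.62-fold for Prom1 and 1.41, 1.34, 2.02 and 1.16-fold for Pax8. Both were low in glomerular or distal lists: the podocyte list was at 0.343-fold in Pax8 spots and 0.365-fold in Prom1 spots of PAN_LS-FMD. In healthy, 2192 of the 2323 Pax8 spots also held Prom1, at that section's greater depth. Meis1 ratios peaked between 1.22-fold and 1.37-fold over the sections, with the podocyte list highest in PAN and healthy, and Jag1 ratios between 1.14-fold and 1.30-fold, with the thick ascending limb list highest in PAN and the proximal S3 list in healthy and PAN_LS-FMD. Spots that hold these 2 genes were thus spread over segments.

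**Figure D5:**
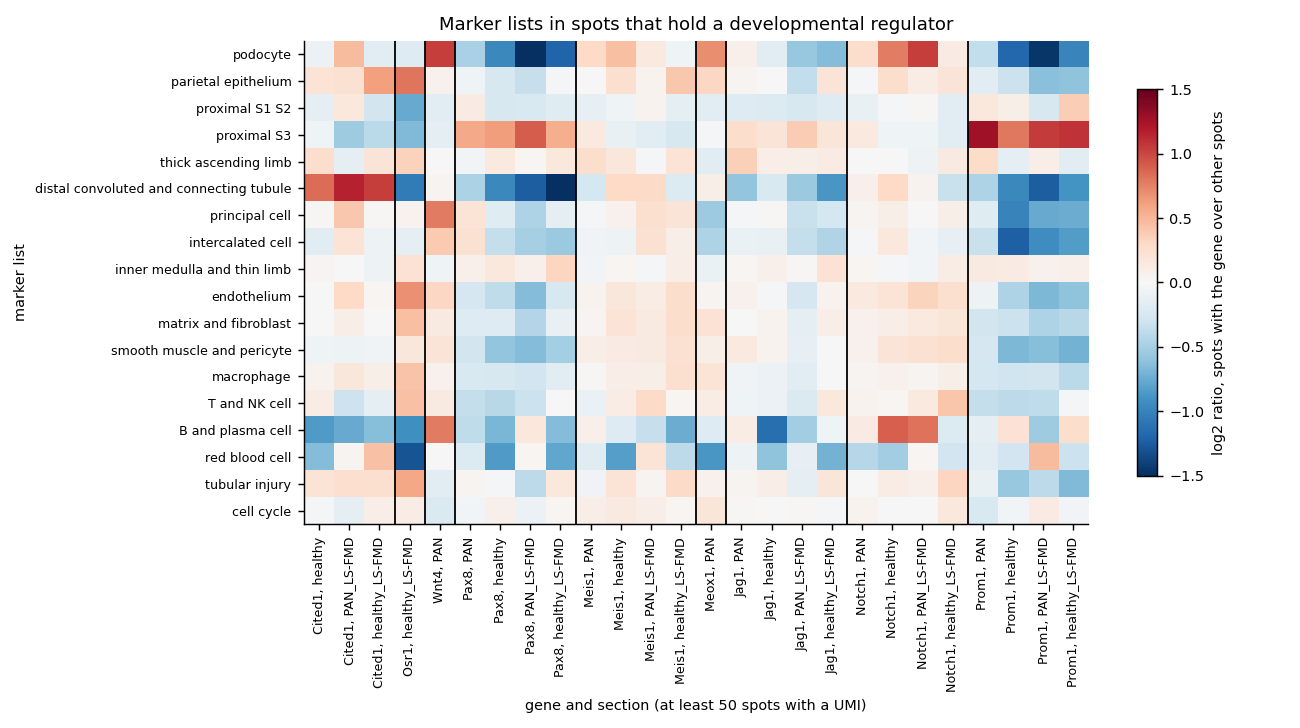
log2 ratio of each of 18 marker lists in spots that hold a gene over the other spots of the section; columns are the 26 pairs of a gene and a section with at least 50 holding spots, red is higher and blue lower, with colours capped at 1.5 on either side of 0. The distal convoluted and connecting tubule list is red in all 3 Cited1 columns, and the proximal S3 list is red in all Pax8 and Prom1 columns.

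Genes with the most similar pattern were sought over the 57 regions, by Pearson's r of log2(CPM + 10) after centring on each section, among 8985 genes. Regions of a section share a library, so r describes these regions only. For Cited1 they were Mmd (0.79), Slc16a7 (0.76) and Tlr3 (0.75), for Notch1 the endothelial genes Emcn and Eng and the catenin gene Arvcf (each 0.91), and for Prom1 Mep1b, Cth and Akr1c12l1 (each 0.91). For Pax8 they were Mxi1 (0.90), Saysd1 (0.88) and Hspa2 (0.87), for Meis1 St5 and Islr (each 0.80) and Mxd4 (0.79), for Jag1 Dvl3 (0.79), Ccdc64 (0.78) and Ephb2 (0.77), and for Wnt4 Lats2, Vasn and Agtr1b (each 0.69). Osr1, Lhx1 and Meox1 had too few UMIs.

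The other genes of these pathways were read from 8 lists of 122 genes, which leave out the 10. Of these, 7 had 0 UMIs in every section (Six2, Gdnf, Fgf8, Fgf20, Tbx18, Hes5 and Hey1) and 3 had no row of their symbol. In PAN against healthy, 6 of 10 tested cap mesenchyme regulators were higher and 1 lower, with Tmem100 17.8-fold higher (11.5 to 28.8), Robo2 4.62-fold higher (4.06 to 5.27) and Crym 2.46-fold lower (2.39 to 2.54). Of 10 stromal progenitor regulators 7 were higher and 1 lower, with the Hedgehog effector Gli1 10.2-fold (7.33 to 14.4) and Osr2 8.65-fold (6.09 to 12.5). Over all genes 44.3% were higher and 9.85% lower. The list medians were 0.75 and 1.39 against 0.51 over all genes. Early nephron regulators stood lower, with 1 of 11 higher (Emx2, 1.65-fold) and a median of 0.30.

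The Notch and Wnt lists were read in the same comparison, in which 44.3% of all genes were higher and 9.85% lower (median 0.51). Of 15 Notch pathway genes 10 were higher and 1 lower (median 0.83), including the target Heyl at 4.36-fold (3.97 to 4.78), the Notch-modifying enzyme Mfng at 3.13-fold (2.78 to 3.53) and the ligand Jag2 at 2.74-fold (2.39 to 3.15). Of 16 Wnt pathway genes 9 were higher and 2 lower (median 1.18), including the transcription factor Lef1 at 8.93-fold (5.70 to 14.5) and Nkd1, a Wnt antagonist, at 7.61-fold (6.09 to 9.58). Scattered tubular and progenitor-associated genes, the list to which Prom1 belongs by function, had 8 of 13 higher and 0 lower (median 1.79), led by Vim at 5.92-fold (5.70 to 6.14) and Itgb4 at 5.64-fold (5.15 to 6.18). The ureteric bud list had 4 of 10 higher and 1 lower (median 0.33), near the background, and the list of CITED partners and related homeobox genes 5 of 8 higher and 0 lower (median 0.74).

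In PAN_LS-FMD against PAN, Notch pathway genes were 0 of 15 higher and 9 lower, with Heyl 3.04-fold lower (2.76 to 3.35). Wnt pathway genes were 2 of 16 higher and 9 lower, with Lef1 16.7-fold (8.12 to 39.7) and Nkd1 10.1-fold lower (7.40 to 14.0). Stromal progenitor regulators were 1 of 10 higher and 7 lower, with Gli1 10.1-fold lower (6.75 to 15.8), and cap mesenchyme regulators 1 of 10 higher and 6 lower, with Tmem100 11.1-fold lower (7.10 to 18.2). Early nephron regulators were 2 of 10 higher and 1 lower: Irx3 1.77-fold (1.65 to 1.90) and Hnf4a, a master regulator of the proximal tubule, 1.72-fold higher (1.67 to 1.77), with Tfap2b 1.74-fold lower (1.47 to 2.05). Over all genes 9.67% were higher and 35.5% lower. The medians of these 5 lists were -0.82, -1.06, -0.94, -1.01 and -0.12 against -0.37 over all genes.

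In PAN_LS-FMD against healthy, where 6.80% of all genes were higher and 4.53% lower, 6 of the 90 list entries tested were higher and 7 lower. Osr2 was 3.15-fold higher (2.13 to 4.71) and Robo2 1.68-fold higher (1.45 to 1.95), while Hoxc10 was 1.97-fold lower (1.41 to 2.79) and the Wnt antagonist Sfrp2 1.55-fold lower (1.40 to 1.71). In healthy_LS-FMD against healthy, ureteric bud and collecting duct regulators were 6 of 9 higher and 0 lower, with Wnt9b 11.6-fold (7.27 to 19.2) and Wnt7b 8.87-fold (7.76 to 10.2), both ligands of the ureteric epithelium. Early nephron regulators were 7 of 11 higher and 1 lower, Notch pathway genes 7 of 15 higher and 0 lower, with the target Hes1 2.52-fold (2.38 to 2.66), and scattered tubular genes 7 of 13 higher and 0 lower, with Prom2, the paralog of Prom1, 5.76-fold (5.28 to 6.28). Prom1 itself was not called there. Over all genes 27.1% were higher and 5.27% lower in this comparison. The medians of these 4 lists were 0.97, 0.79, 0.59 and 0.73 against 0.33 over all genes.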

How the data were processed

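Visium counts of 4 rat kidney sections, 1 per group, were analysed. The deposited matrices hold raw UMI counts per spot and feature, made by the authors with Space Ranger 1.2.1 or 2.0.1 per the file headers; the genome build and annotation are not given in the sources used here. Spots under 500 UMIs were removed, section counts were summed and levels were expressed as CPM of all UMIs kept. With 1 section per group no test was possible: exact 95% intervals (Poisson for levels, exact for a ratio of 2 Poisson counts, Clopper-Pearson for shares) cover counting error only, and UMIs of a spot share a library. A gene was called at 1.5-fold or more with an interval that excludes 1 and at least 20 UMIs over both sections.

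Regions were clustered in each section with scanpy 1.11.5 (2000 variable genes without the members, 30 components, 15 neighbours, Leiden resolution 1). They were placed in zones by marker lists, with a scoring rule set after the leading genes were seen. As limits of the zones, a PAN_LS-FMD region of 125 spots led by Klk1c9 and Calb1 fell to blood-rich tissue, and similar regions fell to cortex in healthy and to medulla in healthy_LS-FMD. Lhx1 was highest in such regions of PAN and healthy. In comparisons that include PAN_LS-FMD or healthy_LS-FMD, its cortical folds thus compare partly unlike tissue. The PAN region led by Igh-6, Pla2g2a and Serpine2 fell to medulla by a narrow margin over the outer stripe (scores of 0.250 and 0.214). Named pathway genes are up to 3 called genes per list and comparison with at least 50 UMIs, by size of fold. Like genes had at least 500 UMIs and members at least 200. Thinning used 5000 UMIs. The interval and fold code was tested on simulated data. Members and lists were chosen with earlier results of these data known. Alternatives covered scaling, spot and count filters, clustering and zones. Python 3.11.15, numpy 2.4.6, scipy 1.17.1 and pandas 2.3.3 were used.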

Additional observations from a re-analysis of the deposited data

Results flagged for a closer look

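For 5 members the difference that went with the diet had opposite directions in the injected and the uninjected kidney, which is what marks them here. Each value is a log2 fold over all spots, PAN_LS-FMD against PAN first and healthy_LS-FMD against healthy second. Cited1 was at 1.12 and -0.77, Osr1 at -2.01 and 2.34, and Wnt4 at -2.10 and 1.72. Meis1 was at -1.32 and 0.97, and Notch1 at -0.91 and 0.79. Over all genes 9.67% were higher and 35.5% lower in the first contrast (median -0.37), and 27.1% and 5.27% in the second (median 0.33). The share of all genes called in opposite directions was not counted. With median-of-ratios scaling Notch1 was called in neither contrast. In cortex Wnt4 and Meis1 alone of the 5 kept a call in both contrasts. The difference between the 2 contrasts was not tested, since each side has 1 section per group. The contrasts also differ in length of diet (6 cycles against 1 cycle) and in time after it, and these cannot be told apart from the injection.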

How the results depend on the processing

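Of 440 values recomputed under alternatives listed at the start, 397 kept their call or stayed uncalled, 22 gained a call, 21 lost one and no called value reversed; some uncalled values crossed 1, such as Pax8 in PAN against healthy. Of 40 under alternatives added after seeing the data, 29 kept their call or stayed uncalled. In PAN_LS-FMD against healthy the number of members called, 3 over all spots, was 1 with median-of-ratios scaling and 6 with healthy_LS-FMD as the reference, and 4 in cortex became 2 with median-of-ratios scaling. In cortex of healthy_LS-FMD against healthy, 3 calls became 5 when zones were set spot by spot. With healthy_LS-FMD as the reference, PAN reversed for Osr1 (log2 fold -0.43) and Jag1 (-0.29), and PAN_LS-FMD reversed for Wnt4 (-0.98). The cause was not tested. Over all genes, median-of-ratios scaling gave 2981 higher and 2859 lower calls in PAN against healthy (5846 and 1301 by total UMIs), 2415 and 2802 in PAN_LS-FMD against PAN (1243 and 4565), 558 and 821 in PAN_LS-FMD against healthy (882 and 588), and 1351 and 1665 in healthy_LS-FMD against healthy (3512 and 683). Leaving out a replicate was not possible. No paired analysis was possible because each group had 1 section. Lhx1, Osr1, Wnt4 and Meox1, with at most 105 UMIs in a section, are limited by depth.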
